A study of Mus musculus with 12 samples.

Results

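Imprinted genes are genes expressed mainly from the copy inherited from 1 parent, and 42 of them were followed here in totipotent potential stem (TPS) cells and extended pluripotent stem (EPS) cells of the mouse. The list was drawn up by name, from genes with well-known imprinting in the mouse, though with earlier results of these data known. The count tables held 55401 genes, and all 42 imprinted genes were among the 17468 genes with enough reads to be tested. By position they fell into 19 loci, of which 9 held more than 1 of the listed genes. From textbook knowledge, 25 of the 42 are expressed from the paternal copy, 16 from the maternal copy, and Gnas from either copy, depending on its promoter and tissue.

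Polyadenylated RNA of 6 cell lines was sequenced, 3 of TPS and 3 of EPS cells, with 2 technical replicates per line and 12 libraries in total. TPS cells were grown on feeder cells in a medium that the labels name VCED. The study's methods call the TPS condition CPEC, with VPA (which blocks histone deacetylases), EPZ004777 (which blocks DOT1L), CD1530 (which activates a retinoic acid receptor) and CHIR-99021 (which blocks GSK3), on inactivated mouse embryonic fibroblasts. EPS cells were grown on feeder cells in LCDM medium. TPS cells of the study came from EPS cells, ES cells or 2-cell embryos (the mice were B6-Tg for the embryos), and which origin the sequenced TPS lines had is not given in the sources used here, nor are the strain and sex of the lines or whether a line is 1 clone. The lines may therefore also differ in genetic background, and this cannot be told apart from culture condition.

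In an imprinted domain, methylation laid down in the egg or the sperm at a control region decides which copy of the neighbouring genes is transcribed. After fertilization the methylation is kept at these regions while it is lost elsewhere, through ZFP57 and its partners, which bind the methylated hexamer TGCCGC, and through the maintenance methyltransferase DNMT1 with UHRF1. Many paternally expressed genes promote growth of the fetus and the placenta, and many maternally expressed ones restrain it. Cultured stem cells are known to lose or gain imprints, so the levels of these genes are often used as a first look at imprint state. The counts used here do not separate the parental copies, and no level below is a measure of imprinting.

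Library totals ranged from 13676051 to 21821707 counts, and totals per line from 29877215 to 38466294. Levels are given as CPM, the summed counts of a line scaled to its total and corrected for composition by the trimmed mean of M values method (TMM). In a mixed culture, fewer cells of a type and less RNA per cell cannot be told apart. Markers of fibroblasts, which the feeder layer could contribute, moved with the comparison: 10 of the 15 tested markers passed the test, all of them higher in TPS lines, and S100a4 was at 0 in every line. Their summed level was 6693, 3856 and 4329 CPM in TPS lines 1 to 3 and 372.6, 1514 and 1597 CPM in EPS lines 1 to 3. All 6 totipotency markers, the Zscan4 genes among them, were higher in TPS lines, and 5 of 8 pluripotency markers were lower. Trophoblast markers summed to 602 CPM in TPS line 2 and to between 103 and 219 CPM in the other 5 lines, led by Krt8 at 243 CPM and Krt18 at 198 CPM in TPS line 2. Primitive endoderm markers summed to between 36.7 and 60.5 CPM in TPS lines and between 11.3 and 18.6 CPM in EPS lines. Of the 4 Y-linked genes, Ddx3y, Eif2s3y and Uty were highest in TPS line 1 and EPS line 1 of their groups, Ddx3y at 36.3 and 10.7 CPM, while Kdm5d was highest in TPS line 1, at 18.4 CPM, and lowest in EPS line 1, at 0.327 CPM. Xist was highest in TPS line 1 and lowest in TPS line 2 and EPS line 1 of their groups, at 1.97 and 1.44 CPM in the latter pair. The part of these differences in the results below was not tested.

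Of the 42 imprinted genes, 13 were higher in TPS lines and 4 were lower, and 25 did not pass the test. Over all lines, Igf2, H19 and Dlk1 rose most, a growth factor, a noncoding RNA and a membrane protein of the fetus. The 4 falls were Slc22a18 and the noncoding RNAs Meg3, Rian and Mirg. Without TPS line 2 the log2 fold change was 4.25 for Igf2. Those of H19 (2.15) and Dlk1 (1.83) were then below those of Magel2 (2.48) and Peg12 (2.16). Among all genes tested, 14.4% were called higher and 7.34% lower with edgeR's quasi-likelihood test at a Benjamini-Hochberg adjusted p under 0.05. The median log2 fold change was 0.40 over the imprinted genes and -0.0038 over all genes tested. The 3 TPS lines were all above the 3 EPS lines for 14 imprinted genes and all below them for 5, against 23.6% and 19.1% of all genes, and the groups overlapped for the other 23.

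Of the 25 paternally expressed genes, TPS lines had 9 at a higher and 0 at a lower level, and the median log2 fold change was 0.96. Among the 16 maternally expressed genes, 4 were higher and 4 were lower, with a median of -0.19. These are 36.0% and 0% of the paternally and 25.0% and 25.0% of the maternally expressed genes, beside 14.4% and 7.34% of all genes. A difference between these classes was not tested, and 3 of the 4 maternally expressed genes that were lower are neighbours in 1 domain. Of the 9 paternally expressed genes that were higher, Ndn, Magel2 and Peg12 are also neighbours, within 118 kb. Without EPS line 1, 2 or 3 the imprinted genes called higher numbered 8, 6 and 6, and without TPS line 2 they numbered 10. In these fits all genes called higher fell from 2509 to 1724, 1647, 1957 and 2234. The paternally expressed genes called higher numbered 6, 5 and 4 without EPS line 1, 2 or 3. The maternally expressed ones numbered 2, 1 and 2. The same 4 imprinted genes were called lower whichever line was left out.

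**Figure D1:**
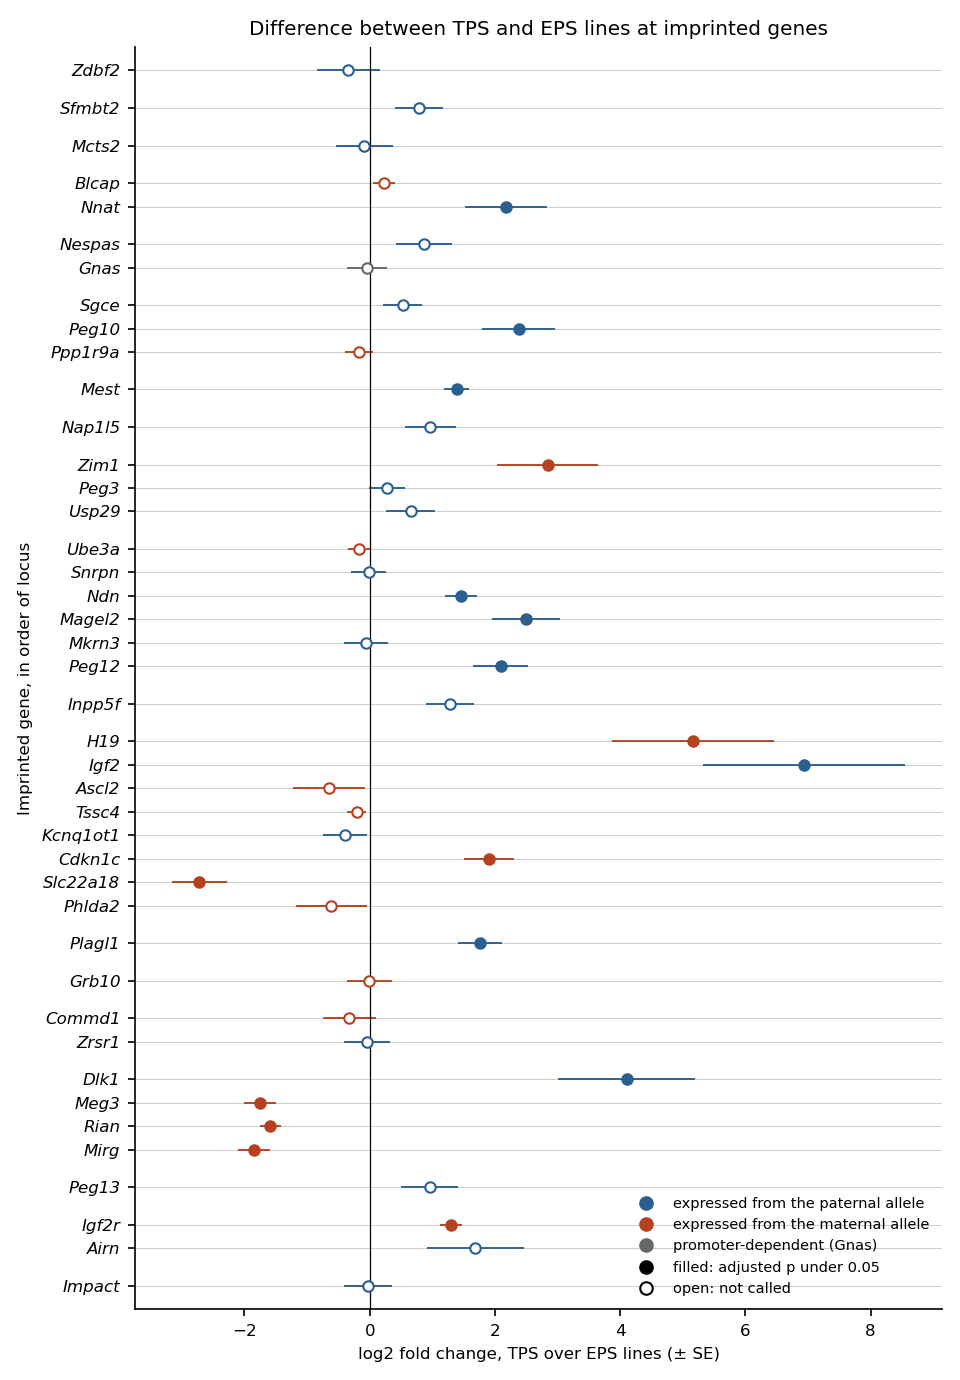
log2 fold change of each of the 42 imprinted genes between TPS and EPS lines (n = 3 lines per group), in order of locus. Bars are 1 SE, derived from the edgeR test. Colours give the expressed parental copy and filled points an adjusted p under 0.05; 13 filled points lie to the right of 0 and 4 to the left.

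The Dlk1 to Mirg domain on chromosome 12 was the only locus with more than 1 listed gene where all of them were called. It holds the paternally expressed Dlk1, a Notch-like transmembrane protein that holds back differentiation, and the maternally expressed noncoding RNAs Meg3, Rian and Mirg, which lie downstream on the same strand. Rian carries small nucleolar RNAs and Mirg a large cluster of microRNAs. In mouse pluripotent lines, silencing of Meg3 is a known mark of reduced developmental potential. The RefSeq sequences of the 250 bases before the starts of Dlk1 and Meg3 in GRCm38.p6 are given because these neighbours moved in opposite directions; capitals mark the TGCCGC hexamer on either strand (GCGGCA on the printed one), which occurs once before Meg3 and not before Dlk1.
Dlk1 chr12:109452573-109452822, + strand: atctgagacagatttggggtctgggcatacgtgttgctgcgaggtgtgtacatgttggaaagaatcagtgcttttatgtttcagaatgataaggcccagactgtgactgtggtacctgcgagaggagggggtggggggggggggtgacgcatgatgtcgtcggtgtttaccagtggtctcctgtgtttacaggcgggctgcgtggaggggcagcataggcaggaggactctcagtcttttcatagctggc
Meg3 chr12:109540746-109540995, + strand: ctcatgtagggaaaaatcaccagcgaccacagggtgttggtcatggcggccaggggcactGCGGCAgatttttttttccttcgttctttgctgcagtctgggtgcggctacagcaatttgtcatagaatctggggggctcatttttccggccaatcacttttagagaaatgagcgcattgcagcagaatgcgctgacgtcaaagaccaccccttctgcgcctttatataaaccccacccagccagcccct

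Meg3 (ENSMUSG00000021268.17, chr12:109541001-109571726 of GRCm38) was at 18.8, 26 and 22.0 CPM in TPS lines 1 to 3 and at 54.5, 102 and 69.2 CPM in EPS lines 1 to 3. No TPS line reached the lowest EPS line, and the EPS level was 3.38-fold that of TPS lines, a log2 fold change of -1.76 (SE 0.25, edgeR adjusted p = 0.00484).

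Rian (chr12:109603940-109661716), the host of small nucleolar RNAs, had 61.4, 89.9 and 72.9 CPM in TPS lines and 196, 235 and 242 CPM in EPS lines, again without overlap. Its log2 fold change of -1.58 (SE 0.17, edgeR adjusted p = 0.00239) came with the lowest adjusted p of the 42 genes. Mirg (chr12:109729764-109749460) was at 2.90, 3.29 and 3.46 CPM in TPS lines and at 9.44, 13.7 and 11.8 CPM in EPS lines, a log2 fold change of -1.86 (SE 0.26, edgeR adjusted p = 0.00431). The 3 noncoding RNAs were thus between 3.00-fold and 3.62-fold lower in TPS lines. The calls of all 3 held in each fit without 1 line, with adjusted p up to 0.0213 for Meg3, 0.0122 for Rian and 0.0187 for Mirg.

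Dlk1 (chr12:109452823-109463336) went the other way. It was at 3.15, 68.7 and 7.85 CPM in TPS lines 1 to 3 and at 1.44, 1.62 and 1.56 CPM in EPS lines. All TPS lines exceeded all EPS lines, but line 2 was 12.5 times the mean of the other TPS lines. Its log2 fold change was 4.10 (SE 1.09, edgeR adjusted p = 0.0343), and 1.83 (SE 0.46, adjusted p = 0.0383) without TPS line 2. Leaving out any 1 EPS line ended the call, with adjusted p up to 0.102.

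The RefSeq table of GRCm38.p6 placed 14 hairpins within Mirg and 3 within Rian on the same strand, and mature sequences of Mir770 and Mir1906-1 within Meg3. Mature miRNAs were not measured by these libraries, so the sequences show which small RNAs the hosts encode and carry no level. A pair of the 26 mature sequences in Mirg, miR-453 and miR-496a-5p, share 1 seed, and the others have seeds of their own; capitals mark the seed, bases 2 to 8.
miR-770-5p, in Meg3, chr12:109563710-109563731: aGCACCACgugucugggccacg
miR-370-3p, in Rian, chr12:109618305-109618326: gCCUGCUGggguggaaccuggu
miR-134-5p, in Mirg, chr12:109734145-109734166: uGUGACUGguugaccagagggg
miR-410-3p, in Mirg, chr12:109743764-109743784: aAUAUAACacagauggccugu
miR-453, in Mirg, chr12:109735669-109735692: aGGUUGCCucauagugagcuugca
miR-496a-5p, in Mirg, chr12:109739132-109739152: aGGUUGCCcaugguguguuca

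**Figure D2:**
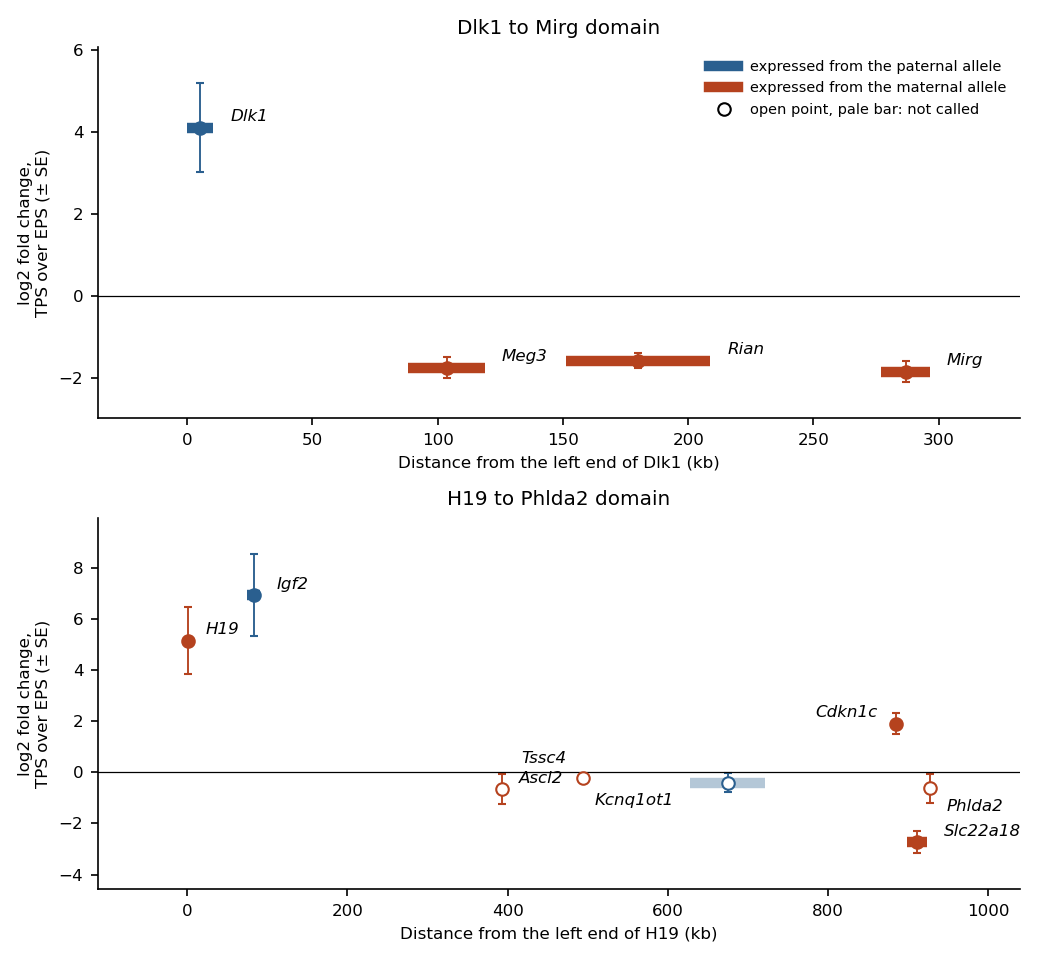
log2 fold change (vertical, with bars of 1 SE, n = 3 lines per group) of the genes of 2 imprinted domains against distance in kb along the chromosome. In the upper panel Dlk1 lies above 0 and Meg3, Rian and Mirg, 88.2 to 297 kb away, lie at about the same level below it; in the lower panel H19, Igf2 and Cdkn1c lie above 0 and Slc22a18 below.

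On distal chromosome 7, 8 of the listed genes lie within 928 kb, in 2 neighbouring domains under separate control regions. H19, a maternally expressed noncoding RNA, and Igf2, a paternally expressed growth factor, share enhancers. Their control region lets only 1 of the pair use them on each copy. Both rose in TPS lines.

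H19 (ENSMUSG00000000031.16, chr7:142575529-142578143) was at 35.0, 655 and 24.4 CPM in TPS lines 1 to 3 and at 5.62, 8.04 and 6.29 CPM in EPS lines 1 to 3. The lowest TPS line was above the highest EPS line, and line 2 was 22.0 times the mean of the other TPS lines. Its 2 technical replicates in that line gave 635 and 676 CPM. Over all lines the log2 fold change was 5.16 (SE 1.30, edgeR adjusted p = 0.029). Without TPS line 2 it was 2.15 (SE 0.27, adjusted p = 0.00786), a 4.45-fold difference with a smaller error.

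Igf2 (chr7:142650766-142666816) was near the limit of detection in EPS cells, at 0.0979, 0.206 and 0.313 CPM, where the fullest EPS library held 6 counts of it. The TPS lines had 0.924, 70.1 and 7.18 CPM, a 75.8-fold range among themselves. A log2 fold change of 6.94 (SE 1.61, edgeR adjusted p = 0.0223) fell to 4.25 (SE 0.92, adjusted p = 0.0256) without TPS line 2. Leaving out any 1 EPS line ended the calls of H19 and Igf2, with adjusted p up to 0.0927 and 0.0774. Gm49394, an annotated gene with 100% identity to 76.2% of the longest Igf2 transcript, overlaps Igf2 on the same strand and had a count of 0 in all 6 lines, and how reads of the shared exons were assigned is not given in the sources used here. H19 and Igf2 each carry a miRNA, shown with the seed in capitals, and neither was measured here.
miR-675-5p, in H19, chr7:142577112-142577133: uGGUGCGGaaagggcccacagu
miR-483-3p, in Igf2, chr7:142654932-142654952: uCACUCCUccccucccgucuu

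Downstream of these, Cdkn1c and Slc22a18 moved apart although they lie 12.7 kb from each other. Cdkn1c (chr7:143458339-143461050), the cell cycle inhibitor p57, was at 6.47, 15.8 and 7.02 CPM in TPS lines and at 2.94, 2.32 and 2.53 CPM in EPS lines. For Cdkn1c the log2 fold change was 1.91 (SE 0.40, edgeR adjusted p = 0.0161), and the call was lost only without EPS line 2, at an adjusted p of 0.0574. Slc22a18 (chr7:143473736-143499334), an organic cation transporter-like protein, was at 1.87, 3.73 and 3.53 CPM in TPS lines and at 27.4, 22.7 and 10.3 CPM in EPS lines. This was the largest fall of the 42 genes, 6.61-fold, with a log2 fold change of -2.72 (SE 0.44, edgeR adjusted p = 0.00691). The call held without any 1 line. The 250 bases before its RefSeq start are given because this promoter is the 1 window of the region with 0 CpG dinucleotides, where the windows of all genes have a median of 6.
Slc22a18 chr7:143473539-143473788, + strand: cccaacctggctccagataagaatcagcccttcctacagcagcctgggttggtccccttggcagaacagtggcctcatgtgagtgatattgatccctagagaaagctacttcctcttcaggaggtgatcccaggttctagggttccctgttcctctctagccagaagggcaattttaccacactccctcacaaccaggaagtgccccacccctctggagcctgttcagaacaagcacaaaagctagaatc

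The other 4 genes of the region did not pass the test. Ascl2, a transcription factor of trophoblast progenitors, had a log2 fold change of -0.65 (edgeR adjusted p = 0.454), with 4.48 to 14.9 CPM in TPS and 7.71 to 22.1 CPM in EPS lines. For Phlda2, which restrains placental growth, it was -0.62 (adjusted p = 0.468), and its level in TPS line 1, 6.17 CPM, stood below the 29.9 to 50.8 CPM of the other 5 lines. Kcnq1ot1, the paternally expressed noncoding RNA that silences this domain in cis, was at 1.43 to 1.48 CPM in TPS lines and 1.44 to 2.56 CPM in EPS lines (log2 fold change -0.40, edgeR adjusted p = 0.456). Tssc4 was lower in every TPS line, at 20.2, 18.7 and 21.4 CPM against 22.3, 24.9 and 22.6 CPM, but by a log2 fold change of only -0.21 (SE 0.16, edgeR adjusted p = 0.364).

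Igf2r on chromosome 17 encodes the receptor that clears IGF2 from the cell surface, and it rose with a small spread between lines. Igf2r (chr17:12682406-12769664) was at 415, 364 and 315 CPM in TPS lines and at 121, 171 and 152 CPM in EPS lines. The lowest TPS line was well above the highest EPS line, and the log2 fold change was 1.30 (SE 0.17, edgeR adjusted p = 0.00391). It stayed between 1.15 and 1.39 without any 1 line. Airn, the paternally expressed antisense RNA that silences Igf2r, starts inside Igf2r and overlaps 28354 bases of it. It was at 0.349 to 1.71 CPM in TPS lines and 0.0653 to 0.471 CPM in EPS lines, with 153 counts in all 6 lines together against 55423 for Igf2r (log2 fold change 1.69, SE 0.77, edgeR adjusted p = 0.155). Whether the counting used strand is not given in the sources used here, so reads of Airn and Igf2r cannot be told apart in the shared stretch.

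On proximal chromosome 6, Peg10 rose and had the highest level of the 42 genes in TPS lines. It derives from a retrotransposon and is needed to form the placenta. Peg10 (chr6:4747306-4760517) was at 652, 1285 and 490 CPM in TPS lines and at 52.9, 257 and 157 CPM in EPS lines. The groups did not overlap, and TPS line 2 and EPS line 2 were the highest of their groups. For Peg10 the log2 fold change was 2.38 (SE 0.58, edgeR adjusted p = 0.0265). It was 1.87 without TPS line 2 (adjusted p = 0.0612), and the highest adjusted p of all fits without 1 line was 0.0697. Its neighbour Sgce, the epsilon subunit of the sarcoglycan complex, shares a bidirectional promoter region with it and is also paternally expressed. Sgce was at 10.9 to 18.0 CPM in TPS and 7.38 to 14.2 CPM in EPS lines, a log2 fold change of 0.53 (edgeR adjusted p = 0.258). Ppp1r9a, encoding the synaptic scaffold neurabin, was at 9.37 to 15.1 CPM in TPS and 13.3 to 14.6 CPM in EPS lines, a log2 fold change of -0.17 (adjusted p = 0.622).

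Mest and Plagl1, at loci of their own, are paternally expressed genes whose promoters lie in methylated control regions. Mest, a hydrolase-like protein of the mesoderm, was at 78.0, 81.9 and 61.3 CPM in TPS lines and at 22.1, 33.2 and 29.1 CPM in EPS lines (chr6:30723547-30748465). Neither group came near the other, and the log2 fold change was 1.39 (SE 0.20, edgeR adjusted p = 0.00464). Plagl1, the zinc finger factor also called Zac1 that regulates other imprinted genes, was at 52.4, 71.6 and 26 CPM in TPS lines and at 16.3, 16.1 and 12.1 CPM in EPS lines (chr10:13060504-13131694). Its log2 fold change was 1.75 (SE 0.35, edgeR adjusted p = 0.0137). Both calls held without any 1 line. The 250 bases before a start of each gene, from RefSeq in GRCm38.p6, are given because they hold the TGCCGC hexamer, in capitals (as GCGGCA on the printed strand), with 2 matches before Mest and 1 before Plagl1.
Mest chr6:30737800-30738049, + strand: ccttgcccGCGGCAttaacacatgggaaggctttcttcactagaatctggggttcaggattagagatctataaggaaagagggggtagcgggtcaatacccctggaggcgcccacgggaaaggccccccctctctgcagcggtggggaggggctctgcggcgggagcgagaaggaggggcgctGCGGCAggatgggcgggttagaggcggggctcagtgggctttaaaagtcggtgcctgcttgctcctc
Plagl1 chr10:13090582-13090831, + strand: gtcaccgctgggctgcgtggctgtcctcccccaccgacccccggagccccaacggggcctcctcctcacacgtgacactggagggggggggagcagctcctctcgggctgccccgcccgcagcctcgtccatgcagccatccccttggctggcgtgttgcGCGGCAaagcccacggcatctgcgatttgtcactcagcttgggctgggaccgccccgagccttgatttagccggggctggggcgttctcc

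The hexamer was searched for on both strands in the 250 bases before each RefSeq start. RefSeq starts were at hand for 35 of the 42 genes, 52 in number, and not for Cdkn1c, H19, Impact, Nespas, Peg10, Peg13 and Sgce. The hexamer was in 8 of the 52 windows, 15.4%, and in 8.68% of the 32841 windows of all genes. It holds a CpG, and the median CpG count was 10.5 in the 52 windows and 6 in the windows of all genes. The part of CpG content in these shares was not tested. Some genes have several starts, and overlapping windows repeat a match, as before Mest. By gene, it was found before Mest, Zim1 and Plagl1 of 10 genes called higher, before Meg3 of 4 called lower, and before 3 of 21 genes not called, Zdbf2, Mcts2 and Nap1l5. A match says only that the letters are there, and control regions outside these windows were not searched.

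In the Prader-Willi and Angelman region of chromosome 7, the 3 genes called were Ndn, Magel2 and Peg12, which lie within a stretch of 118 kb. Ndn encodes necdin, a growth suppressor of neurons, and Magel2 a related protein of the MAGE family. Ndn (chr7:62346569-62350262) was at 27.0, 36.0 and 37.0 CPM in TPS lines and at 10.02, 16.3 and 9.93 CPM in EPS lines. The groups did not overlap, and the log2 fold change was 1.46 (SE 0.25, edgeR adjusted p = 0.00866).

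Peg12, related to a regulator of Wnt signaling (chr7:62461871-62464510), was at 9.69, 8.16 and 9.69 CPM in TPS lines and at 1.73, 3.59 and 1.14 CPM in EPS lines. For Peg12 the log2 fold change was 2.09 (SE 0.44, edgeR adjusted p = 0.0156), with a call lost only without EPS line 1, at an adjusted p of 0.0517. Magel2 (chr7:62377010-62381640) was low in both cell types, at 1.17, 2.05 and 2.86 CPM against 0.588, 0.265 and 0.228 CPM, and no EPS library held more than 13 counts of it. Its log2 fold change was 2.49 (SE 0.54, edgeR adjusted p = 0.0179). Without EPS line 2, EPS line 3 or TPS line 3 the adjusted p of Magel2 was up to 0.0642.

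The other 3 genes of that region stayed close to 0. Mkrn3, a ubiquitin ligase that lies between Magel2 and Peg12, was at 5.21 to 8.21 CPM in TPS and 4.13 to 8.23 CPM in EPS lines (log2 fold change -0.06, edgeR adjusted p = 0.918). Snrpn, which encodes a splicing protein and starts at the control region itself, had a log2 fold change of -0.02 (adjusted p = 0.971). Ube3a, a ubiquitin ligase imprinted in neurons and expressed from both copies in most other cells, had -0.17 (adjusted p = 0.515). Thus 3 paternally expressed genes were higher and 2 others of the same locus, Snrpn and Mkrn3, had fold changes near 1; a difference between them was not tested.

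Zim1, a maternally expressed zinc finger gene beside Peg3 (chr7:6671269-6696450), was at 1.25, 7.18 and 1.43 CPM in TPS lines and at 0.359, 0.265 and 0.740 CPM in EPS lines. The lines did not overlap, and TPS line 2 again stood highest. The log2 fold change of 2.84 (SE 0.81, edgeR adjusted p = 0.0425) was 1.54 (adjusted p = 0.104) without TPS line 2, and the call was lost in 5 of the 6 fits without 1 line. Peg3, a paternally expressed zinc finger gene known for its part in maternal behaviour, was at 109 to 218 CPM in TPS and 94.7 to 136 CPM in EPS lines (log2 fold change 0.28, edgeR adjusted p = 0.526). Usp29, which shares its promoter region with Peg3, had a log2 fold change of 0.65 (adjusted p = 0.273), at 2.96 to 6.27 CPM and 2.13 to 4.18 CPM.

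Nnat encodes neuronatin, a small membrane proteolipid, and lies on the opposite strand within Blcap on chromosome 2 (chr2:157560078-157562522). It was at 7.07, 52.2 and 19 CPM in TPS lines and at 4.80, 7.42 and 5.09 CPM in EPS lines. TPS line 1 fell within the EPS range, so Nnat was the 1 called gene whose lines overlapped. The log2 fold change was 2.18 (SE 0.65, edgeR adjusted p = 0.049), close to the threshold, and 1.17 (adjusted p = 0.121) without TPS line 2. The call of Nnat was lost in 5 of the 6 fits without 1 line, with edgeR adjusted p up to 0.134. Blcap, which encodes a small protein linked to apoptosis, was at 31.4 to 40.1 CPM in TPS and 25.7 to 35.3 CPM in EPS lines (log2 fold change 0.23, adjusted p = 0.393).

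The remaining 12 genes, at loci without a called gene, had log2 fold changes between -0.34 and 1.28. Inpp5f, a phosphoinositide phosphatase with an imprinted variant in brain, was the closest to a call. It was at 26.1, 17.8 and 17.7 CPM in TPS lines and at 13.7, 5.24 and 6.38 CPM in EPS lines, without overlap, and its log2 fold change was 1.28 (SE 0.38, edgeR adjusted p = 0.0501). Of the 12 other ways of fitting the 6 lines or 12 libraries, 11 called it, among them the fits with technical replicates as separate samples. Of the 6 fits without 1 line, only that without EPS line 1 called it, and the highest edgeR adjusted p was 0.14. Nap1l5, a single-exon retrogene, also did not overlap, at 0.6, 0.907 and 0.667 CPM against 0.294, 0.441 and 0.370 CPM, with at most 10 counts per EPS library (log2 fold change 0.97, SE 0.40, edgeR adjusted p = 0.125).

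The lines overlapped for Zdbf2, Sfmbt2, Mcts2, Nespas, Gnas, Grb10, Commd1, Zrsr1, Peg13 and Impact. Sfmbt2, a polycomb protein needed in trophoblast, had a log2 fold change of 0.79 (edgeR adjusted p = 0.184), and Peg13, a noncoding RNA inside Trappc9, had 0.96 (adjusted p = 0.17). Grb10, an adaptor that restrains insulin signaling, was at 73.7 to 211 CPM in TPS and 110 to 173 CPM in EPS lines, a log2 fold change of -0.01. Zdbf2 ranged more widely among EPS lines, from 33.2 to 164 CPM, than among TPS lines, from 59.8 to 70.6 CPM. Impact, a regulator of translation, had a log2 fold change of -0.03. For Gnas, the stimulatory G protein subunit, it was -0.05 and for its antisense RNA Nespas 0.86 (adjusted p = 0.2), and these overlap over 11117 bases. Mcts2 and Zrsr1 are retrogenes inside H13 and Commd1, at log2 fold changes of -0.09 and -0.05, and Commd1 itself, a regulator of copper and NF-kappa B, was at -0.33.

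**Figure D3:**
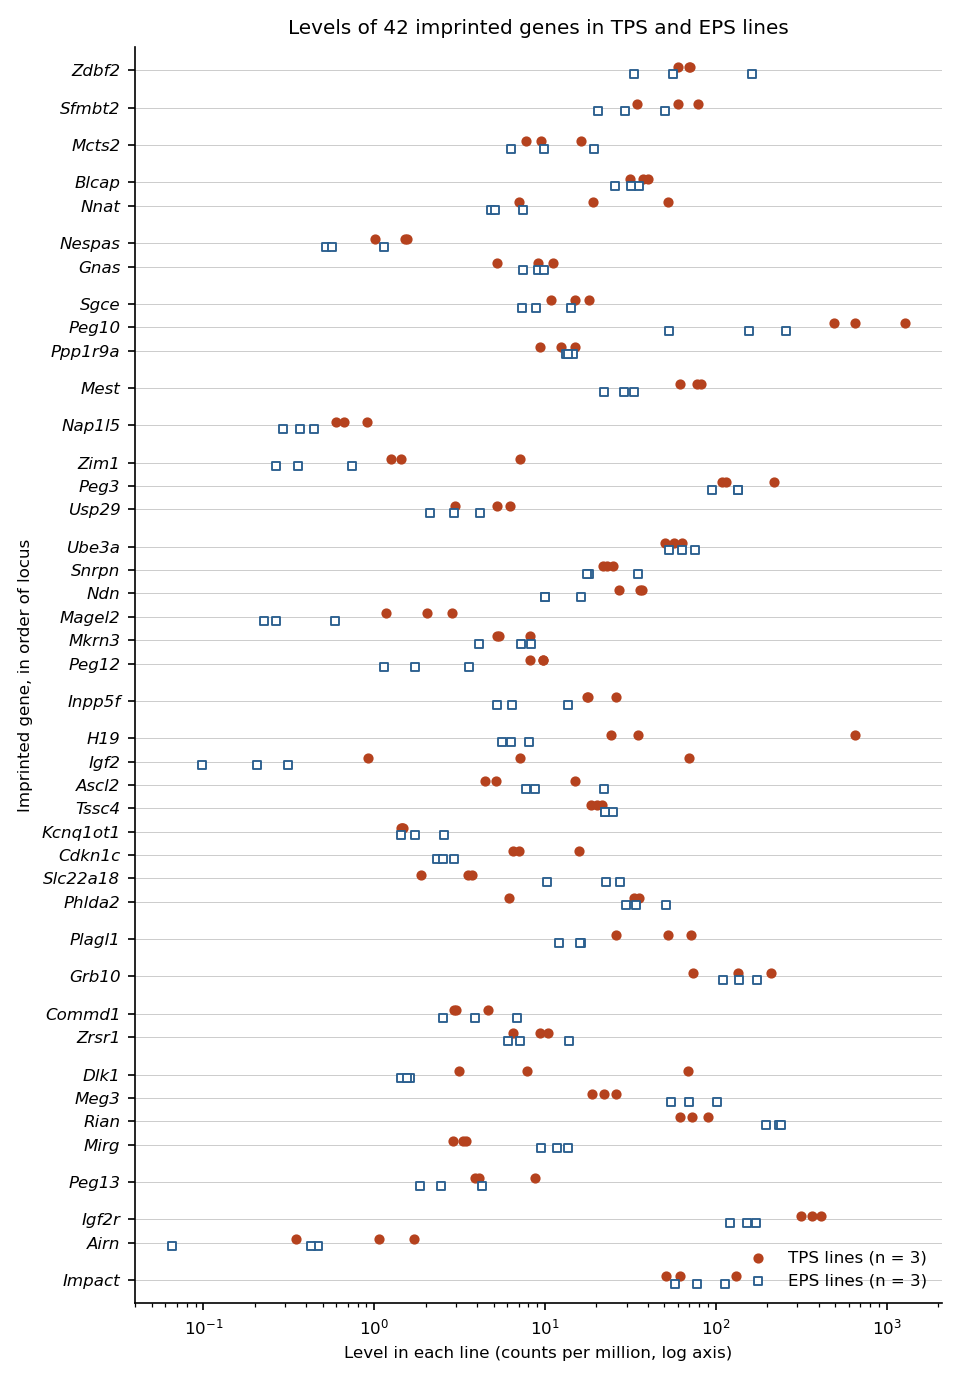
Level of each of the 42 imprinted genes in every line in CPM on a log axis, in order of locus, with filled circles for the 3 TPS lines and open squares for the 3 EPS lines. The 2 sets are apart for 19 genes, and H19, Igf2 and Dlk1 show 1 TPS line far to the right of the others.

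In levels per kilobase of exon, which allow genes to be compared with each other, Peg10 led in TPS lines at 121 CPM per kb, followed by H19 at 96.8 and Igf2r at 39.2. In EPS lines Phlda2 was highest at 34.1 CPM per kb, followed by Peg10 at 23.3 and Impact at 16.1. The mean for H19 in TPS lines comes from line 2 and does not describe the other lines. Of the 42 genes, 31 reached 1 CPM per kb in TPS lines and 27 in EPS lines.

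TPS line 2 had the highest TPS level for 9 of the 13 genes called higher, lines 1 and 3 for 2 each, and over all 42 genes line 2 was highest for 22. The excess was uneven: line 2 was 22.0 times the mean of the other TPS lines for H19, 17.3 times for Igf2, 12.5 times for Dlk1, 5.36 times for Zim1 and 4.01 times for Nnat, but 1.17 times for Mest and 0.997 times for Igf2r. Technical replicates of 1 line differed by a factor of 1.14 at the median of the called genes. Of the 8 trophoblast markers, 4 were highest among TPS lines in line 2 (Krt8, Krt18, Gata3 and Hand1), while Cdx2, Eomes, Elf5 and Tfap2c were not. Hand1 stood at 12.7 CPM there, with 0.275 CPM in line 1 and 1.72 CPM in line 3. Of the 16 fibroblast markers, 10 were lowest among TPS lines in line 2, and Col1a1, Col1a2, Col3a1 and Col5a1 were lowest in line 3. Of the 6 primitive endoderm markers, Gata6, Gata4, Sox17 and Foxa2 were highest and Pdgfra and Sox7 lowest in that line. Without TPS line 2, Peg10, Zim1 and Nnat lost their calls, and H19, Igf2, Dlk1 and the other 11 called genes kept theirs.

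**Figure D4:**
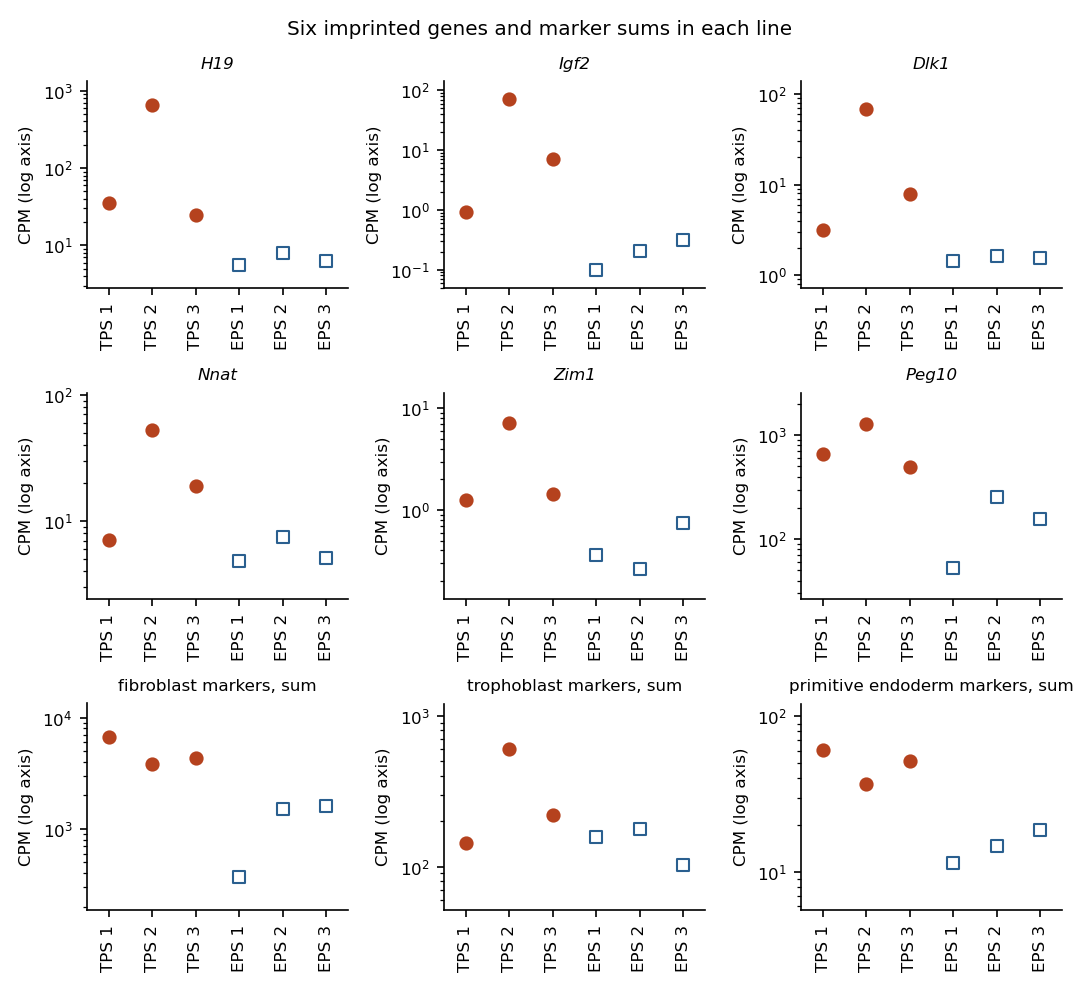
Level in CPM, on log axes, of 6 imprinted genes and the summed level of 3 marker lists in each of the 6 lines (filled circles, TPS; open squares, EPS). TPS line 2 is the highest line for all 6 genes and for the summed trophoblast markers, and the lowest TPS line for the summed fibroblast and primitive endoderm markers. The primitive endoderm sum includes Pdgfra at 49.1, 12.5 and 31.2 CPM in TPS lines 1 to 3. Gata6, Gata4, Sox17 and Foxa2 of that list are highest among TPS lines in line 2, and Pdgfra and Sox7 lowest.

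Among the 17 called genes, 8 kept their call whichever of the 6 lines was left out: Mest, Ndn, Igf2r, Plagl1, Meg3, Rian, Mirg and Slc22a18. The sign of the fold change was the same in all fits for all 17. With limma-voom 5 of the 17 calls were lost, those of H19, Igf2, Dlk1, Nnat and Zim1, at adjusted p of 0.149, 0.177, 0.175, 0.159 and 0.0829 and log2 fold changes of 3.66, 5.24, 2.95, 1.74 and 2.47. Of the 17 calls, 11 held in every other fit of the lines or libraries that tested the gene. All 4 genes that were lower are among those 8, and the 5 genes with the largest rises are not.

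**Figure D5:**
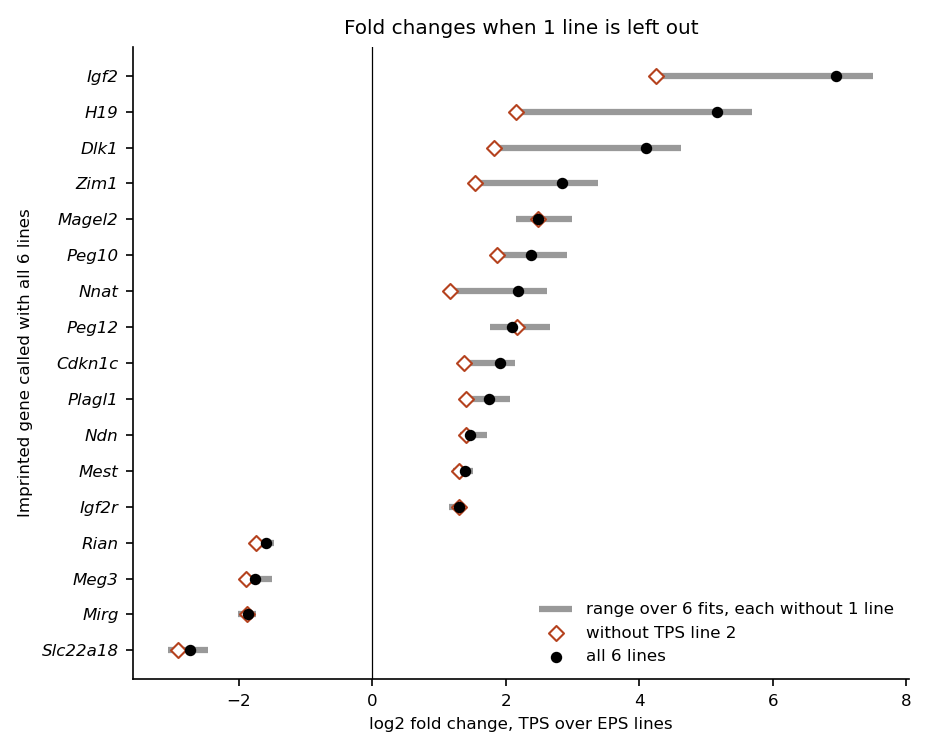
log2 fold change between TPS and EPS lines of the 17 called imprinted genes with all 6 lines (black), without TPS line 2 (open diamonds), and the range over the 6 fits that each leave out 1 line (grey). Meg3, Rian, Mirg, Slc22a18, Igf2r, Mest and Ndn move little, while Igf2, H19 and Dlk1 drop by over 2 units without TPS line 2.

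Factors that set, keep or erase imprints were given as a list of 19 genes, all tested. Of these, 2 rose and 5 fell, which is 10.5% and 26.3% beside 14.4% and 7.34% of all genes, and their median log2 fold change was -0.08. The number that fell was 1 to 3 when any 1 line was left out, while all genes called lower went from 1282 to between 493 and 1047. Zfp57, the zinc finger protein that binds methylated control regions, was at 96.4, 91.9 and 172 CPM in TPS lines and at 287, 256 and 189 CPM in EPS lines. All TPS lines were below all EPS lines, though TPS line 3 came near EPS line 3. The log2 fold change was -1.02 (SE 0.28, edgeR adjusted p = 0.036), and the call was lost in 4 of 6 fits without 1 line, with adjusted p up to 0.107.

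Dnmt3a, a de novo methyltransferase, rose, at 238, 217 and 513 CPM against 71.5, 62.0 and 93.5 CPM (log2 fold change 2.09, SE 0.35, edgeR adjusted p = 0.00785). Its catalytically inactive partner Dnmt3l fell, with a log2 fold change of -0.88 (SE 0.21, adjusted p = 0.0246), and Dnmt3b, the second de novo enzyme, had 0.22 (adjusted p = 0.572). Tet1, a dioxygenase that starts demethylation, was at 193, 209 and 265 CPM against 396, 518 and 575 CPM, a log2 fold change of -1.16 (SE 0.19, edgeR adjusted p = 0.00711). Ctcfl, the germ line relative of the insulator protein CTCF that binds the H19 control region, was at 7.12, 1.92 and 3.11 CPM against 0.196, 0.177 and 0.0285 CPM, the latter from 6, 6 and 1 counts (log2 fold change 4.90, SE 0.77, edgeR adjusted p = 0.00644). The log2 fold change of Ctcfl was 4.21 without TPS line 1, and 6.39 and 4.18 from technical replicate 1 or 2 alone.

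Of the maintenance factors, Uhrf1 fell by 0.51 on the log2 scale (SE 0.13, edgeR adjusted p = 0.027), at 429, 522 and 484 CPM against 693, 665 and 687 CPM. Dnmt1 was at 374, 367 and 333 CPM against 425, 429 and 434 CPM, without overlap but without a call (log2 fold change -0.26, adjusted p = 0.143). Eed, a polycomb subunit, fell by 0.71 on the log2 scale (adjusted p = 0.0301). Dppa3, which protects maternal methylation in the zygote, had a log2 fold change of 0.49 (adjusted p = 0.35), with overlapping lines. Only Dnmt3a, Tet1 and Ctcfl of the 7 called factors kept their call in every fit without 1 line.

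A list of 38 other imprinted genes, of which 28 were expressed enough to be tested, gave 4 higher and 2 lower, which is 14.3% and 7.14% of those tested beside 14.4% and 7.34% of all genes, with a median log2 fold change of 0.63. Slc38a4, an amino acid transporter of the placenta and liver that is paternally expressed, was at 250, 482 and 222 CPM in TPS lines and at 0.261, 24.1 and 12.3 CPM in EPS lines. The groups were far apart, and EPS line 1 was far below its group (log2 fold change 4.70, SE 1.15, edgeR adjusted p = 0.0261, and 0.0724, 0.0512 and 0.0528 without EPS line 3, TPS line 2 or TPS line 3). The log2 fold change was 4.10 without EPS line 1 and 5.62 without EPS line 2. EPS line 1 also had the lowest summed level of fibroblast markers.

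Tfpi2 and Casd1, neighbours of Peg10, rose by log2 fold changes of 2.14 and 0.96 (edgeR adjusted p = 0.0408 and 0.0263), and lost their calls in 5 and 4 of the 6 fits without 1 line, with adjusted p up to 0.12 and 0.083. Osbpl5, in the domain of Cdkn1c, rose by 1.82 (adjusted p = 0.0134). Cobl, beside Grb10, had a log2 fold change of -1.44 (SE 0.17, adjusted p = 0.00296), and Trappc9, the host of Peg13, -0.98 (adjusted p = 0.0109). Rtl1, a retrotransposon-derived gene of the placenta between Meg3 and Rian that is expressed from the paternal copy, opposite an antisense RNA of the maternal copy, was at 0.475, 0.751 and 0.540 CPM in TPS lines and at 1.60, 1.38 and 1.20 CPM in EPS lines (log2 fold change -1.24, SE 0.38, edgeR adjusted p = 0.052). Every TPS line was below every EPS line for Rtl1, unlike Dlk1, also a paternally expressed gene of that domain, and a difference between the pair was not tested. Whether the counting used strand is not given in the sources used here, so reads of Rtl1 and of its antisense RNA cannot be told apart.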

How the data were processed

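Bulk RNA-seq of 3 TPS and 3 EPS lines, 2 technical replicates each, was used. Per the labels and the study's methods, the authors trimmed reads with fastp 0.19.7, mapped them to GRCm38.p6 with STAR 2.7.3a and deposited raw read counts per gene, without normalization. The counting tool, annotation release and strand use are not given in the sources used here. Gene IDs were matched without version to GENCODE M21 (55141 of 55401). Counts of technical replicates were summed per line. Lines were compared with edgeR 4.0.16 in R 4.3.3 (quasi-likelihood test, TMM factors, filterByExpr with minimum counts of 10 and 15 in total, Benjamini-Hochberg over 17468 genes, threshold 0.05). The labels do not say that lines come from separate derivations, so p-values measure the spread between these lines. With 3 against 3 lines no permutation p can fall under 0.1, so none was used.

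The imprinted genes, the marker, machinery and other imprinted lists and the tests were chosen with earlier results of these data known. Members of a locus lie on 1 chromosome with gaps under 3 Mb. Values by line were given for genes called or not overlapping between groups, and levels for neighbours of called genes; of the machinery and other imprinted lists, those called and Zfp57, Dppa3, Dnmt1 and Uhrf1 were named, some by their fold change alone. Rtl1 and Dnmt3b were named after their values were seen. Of the 42 genes, 32 overlap another annotated gene, 24 on the opposite strand, so their reads may be shared. Near-identical transcripts (at least 95% identity over 50% of the longest transcript) were sought with blastn 2.17.0. Sequences are from RefSeq, GRCm38.p6. The test was tested on simulated counts: of 193 genes changed 4-fold among 17176, 175 were called, 90.7%, with 4 false calls. Every simulated gene had the same spread between lines (edgeR's common dispersion of 0.106). These rates therefore do not cover genes that vary more between lines, such as H19, Igf2 and Dlk1. Technical replicates differed by more than sampling noise (chi-square per degree of freedom 2.58 to 22.3, the latter in EPS line 3). Alternatives were DESeq2 1.42.0, limma-voom (limma 3.58.1), other factors and filters, libraries as samples, single technical replicates, the line number as a block, an adjusted p of 0.01 and leaving out each line. Alleles, small RNAs, methylation and single-cell data were not analysed here.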

Additional observations from a re-analysis of the deposited data

How the results depend on the processing

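The 4 imprinted genes that were lower stayed at 4 in every fit without 1 line, and no called imprinted gene changed sign in the 6 fits without 1 line or the 12 other fits that gave it a value (H19 had no adjusted p from DESeq2 on 6 lines, and Igf2 did not pass a minimum of 1 CPM in 3 lines). Without each line in turn, the imprinted genes called higher numbered 6 to 13 (13 with all lines), those expressed from the paternal allele 4 to 9, those from the maternal allele 1 to 4, all genes higher 1617 to 2234 (2509 with all lines), all genes lower 493 to 1047 (1282), machinery genes lower 1 to 3 (5), other imprinted genes higher 1 to 5 (4) and fibroblast markers higher 4 to 10 (10). With 12 libraries as separate samples, DESeq2 and edgeR called 4262 and 4067 genes higher and 3753 and 3610 lower, 14 paternally expressed genes higher in both, 4 machinery genes higher and 8 lower in both, and 13 and 12 of the other imprinted genes higher and 5 and 6 lower. At an adjusted p under 0.01, 3 imprinted genes were higher, 2 of them paternally and 1 maternally expressed, among 873 genes higher and 258 lower, with 1 machinery gene lower, 0 and 1 other imprinted genes higher and lower, and 1 fibroblast marker higher. With library size alone 745 genes were lower, 2 of them machinery genes, which shifted the median over all genes to a log2 fold change of 0.14 (0.18 without a filter on low counts), and differences there are relative to that shift. DESeq2 on 6 lines and the fit without a filter each called 9 other imprinted genes higher, and limma-voom called 2 maternally expressed genes higher.

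Same-numbered lines of the 2 groups had correlations of deviations of 0.024, -0.12 and 0.042, and lines of different number had -0.24 to 0.23. Whether same-numbered lines share an origin is not given in the sources used here, and correlations over 3 lines per group cannot decide it. With the line number as a replicate block, 1714 genes were higher and 721 lower, 2 maternally expressed imprinted genes and 4 fibroblast markers were higher, 2 machinery genes were lower, and 13 imprinted genes were called, 12 of them among the 17. Depth limits Magel2, Igf2, Zim1, Nap1l5, Airn and Ctcfl, with few counts in EPS libraries. The causes of these shifts were not tested, and the fits that leave 1 line out also have fewer lines.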

Other observations

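Among the 28 other imprinted genes tested, 10 had all TPS lines above all EPS lines and 5 had them below, against 23.6% and 19.1% of all genes, and the genes named here were chosen after their values were seen. Beside Peg10 on chromosome 6, Asb4 and Calcr were above in every TPS line without a call, with log2 fold changes of 1.52 (SE 0.59, edgeR adjusted p = 0.104) and 1.80 (SE 0.61, adjusted p = 0.0698). Zfp264, in the Peg3 region, was at 5.30, 6.89 and 2.76 CPM in TPS lines and at 0, 0.648 and 1.31 CPM in EPS lines (log2 fold change 2.92, SE 1.00, adjusted p = 0.0744). Copg2, which overlaps the end of Mest on the opposite strand by 912 bases, was below in every TPS line, at 78.7, 77.7 and 57.6 CPM against 134, 88.1 and 89.5 CPM (log2 fold change -0.54, SE 0.21, adjusted p = 0.103), the opposite direction to Mest. Cd81, in the region of Tssc4, was also below, with a log2 fold change of -0.46 (SE 0.17, adjusted p = 0.0914). Decorin (Dcn), a matrix protein gene that fibroblasts express, ranged from 42.8 to 332 CPM in TPS lines and from 35 to 128 CPM in EPS lines, with the lowest TPS level in TPS line 2.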
